A study of Mus musculus with 6 samples.

Results

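The heat-shock proteins and DNAJ co-chaperones, which fold, refold and sort other proteins, were followed in bone marrow cells of mice after tumour surgery, with and without Onway. Members were taken by gene symbol: every Hspa, Hspb, Hspd, Hspe, Hsph and Hsp90 gene with a number, every Dnaja, Dnajb and Dnajc gene with a number that is not a pseudogene, and in addition Cryab and Hsf1. This gave 75 members of the 56496 genes of the table, covered by 433 transcripts. In the domain annotation of the deposited table, all 45 DNAJ members carried the J domain, 14 members the HSP70 domain, 8 the HSP20 domain of small heat-shock proteins, 3 the HSP90 domain, 2 the chaperonin 10 domain and 1 the chaperonin 60 domain. Hspb11 has the symbol of a small heat-shock protein but was the single one of the 9 members of that class without the HSP20 domain. Hsf1, the transcription factor of the heat-shock response, has none of these domains.

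HSP70 proteins bind unfolded stretches of polypeptide in cycles of ATP hydrolysis, DNAJ (HSP40) proteins bring them their clients and switch on the hydrolysis through the J domain, and HSP90 proteins finish the folding of kinases and receptors. Small heat-shock proteins hold unfolding proteins without using ATP and are abundant in muscle, while HSP60 with HSP10 folds proteins inside mitochondria and BiP with its partners does so in the endoplasmic reticulum. Under heat or other protein damage HSF1 binds heat-shock elements in DNA and switches on the inducible members, above all Hspa1a and Hspa1b, whereas Hspa8 and Hsp90ab1 are made at all times.

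The Onway group was made up of 3 libraries (Onway 1, Onway 2 and Onway 3) of animals that received Onway by gavage over 2 weeks and carry the label day 14. The Control group was made up of 3 libraries (Control 4, Control 5 and Control 6) from untreated mice that carry the label day 0, so that the treatment cannot be told apart from the labelled day. All were female BALB/c mice whose 4T1 tumour, grown from mouse mammary carcinoma cells, had been taken out, and bone marrow cells were harvested from each group. The content of Onway is not stated in the sources at hand. The labels do not say that each library came from its own mouse, so a p-value here sets a difference against the spread among libraries, which may be technical. The extraction text of the labels also lists a culture medium with dexamethasone and insulin, and whether these marrow cells were cultured in it is not stated.

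Values are TPM (a level per transcript length, scaled to the same total in every library) as the authors deposited them, summed over the transcripts of a gene, and sets of 6 values are given in the order Onway 1, 2, 3 and Control 4, 5, 6. TPM keeps no read depth, so the depth behind each value is unknown. In single libraries 60 to 65 members and 13354 to 14252 genes were at 1 TPM or above. Neutrophil markers, which define much of marrow, summed to 195470, 199250 and 111860 TPM in Onway, against 102230, 220470 and 182470 TPM in Control. Of the 15 genes 0 were called, against 2.99% of all tested genes called lower and 0.233% called higher. Their log2 fold changes ran from −0.99 to 0.70, 10 positive and 5 negative, and 1 gene was lower in each Onway library. The sum thus does not speak for each gene. Haemoglobin genes took 13.3, 9.38 and 33.9% in Onway, against 26.6, 11.6 and 18.3% in Control, so the haemoglobin share differed more within the groups than between them. In bulk marrow, fewer cells of a type and less RNA per cell cannot be told apart.

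Onway and Control were compared with limma on log2(TPM + 1) over the 14192 genes whose mean reached 1 TPM, and a gene was called at a Benjamini-Hochberg adjusted p under 0.05 over all of them. Of the 75 members 63 were tested, and the other 12 lay below that mean. The small heat-shock genes Cryab, Hspb1 and Hspb2 were called lower in Onway and no member was called higher. The 3 lower calls were 4.76% of the tested members, against 2.99% of all tested genes called lower, and the 0 higher calls stand against 0.233% of all tested genes. At an unadjusted p under 0.05 there were 7 members, all with a negative fold change, or 11.1% of the tested members against 13.4% of all tested genes. The Onway libraries lay wholly below the Control libraries for 9 tested members (14.3%, against 11.5% of all tested genes) and wholly above them for 1, Hspa2 (1.59%, against 6.95%). These shares lie near those of all genes for the lower calls and the lower ranks, so the members as a whole did not stand apart in them. Hspb1 and Hspb2, counted in both, reached a mean of 1 TPM through their Control libraries alone. Their place in these shares depended on that filter. The median log2 fold change was −0.03 over the tested members and 0.03 over all tested genes, and 55 of the 63 members lay within 0.5 of 0 on the log2 scale. The share of each library's TPM that fell on all 75 members together was 0.307, 0.358 and 0.257% in Onway, against 0.346, 0.304 and 0.274% in Control, with overlapping groups.

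**Figure D1:**
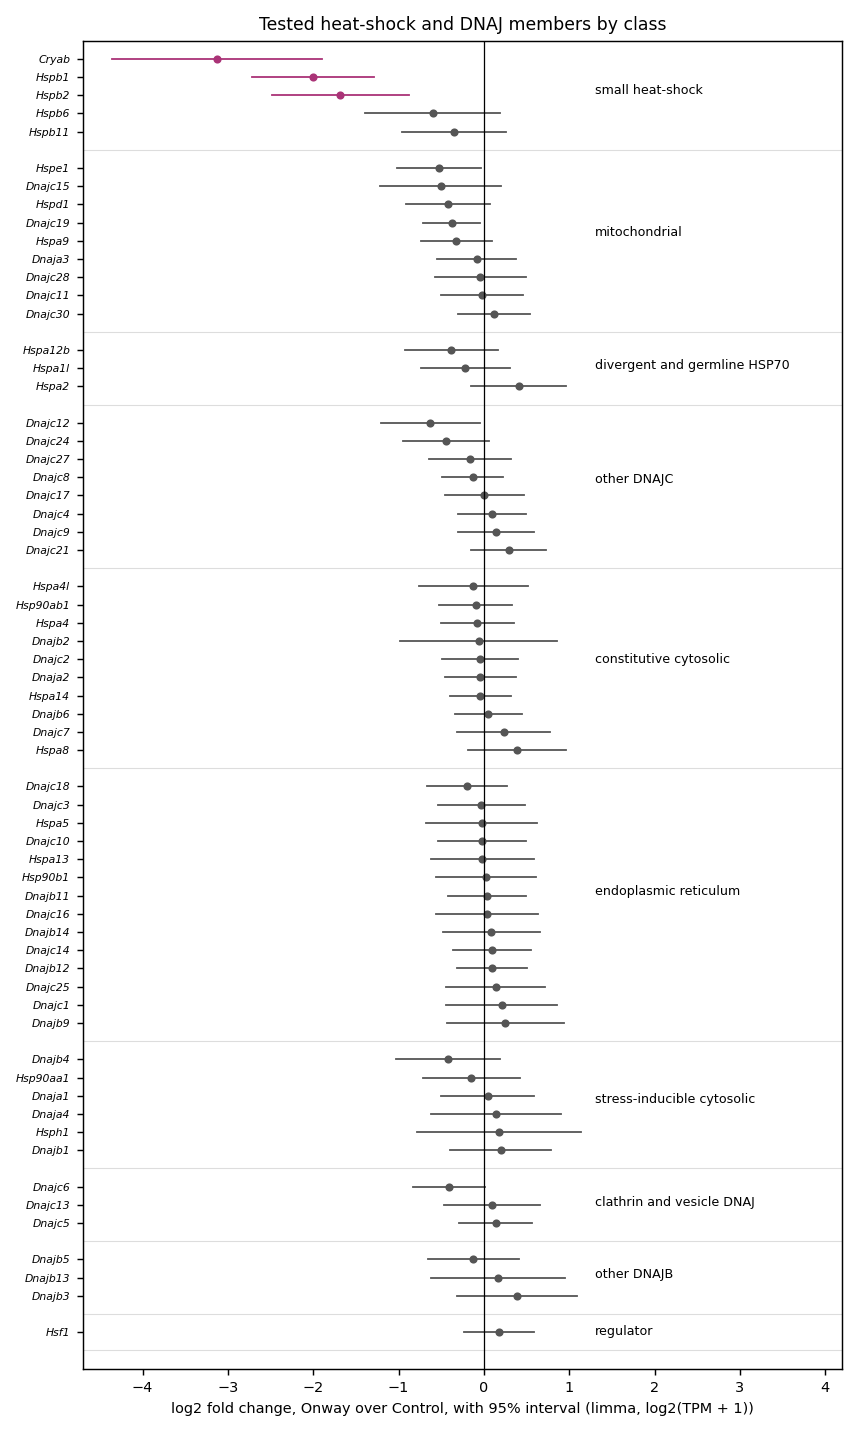
Log2 fold change of Onway over Control for 62 of the 63 tested members, by class, with 95% intervals from limma on log2(TPM + 1); coloured points are the called members. Cryab (−3.13), Hspb1 (−2.00) and Hspb2 (−1.68) lie far left of 0, while most members of the other classes lie within 0.5 of it.

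The small heat-shock class held the 3 calls. Cryab, αB-crystallin, which guards the filaments of muscle and lens, was at 2.22, 1.50 and 1.41 TPM in Onway, against 25.7, 9.70 and 44.4 TPM in Control. Every Onway library lay far below every Control library (log2 fold change −3.13, SE 0.51, adjusted p = 0.026, 95% interval −4.35 to −1.90). Hspb1, known as HSP25 or HSP27, an actin-protecting chaperone, was at 0, 0.24 and 0.33 TPM in Onway, against 3.27, 2.52 and 6.09 TPM in Control (log2 fold change −2.00, SE 0.31, adjusted p = 0.013). Hspb2, a muscle partner of the myotonic dystrophy kinase, was at 0, 0 and 0.08 TPM in Onway, against 2.02, 1.22 and 4.32 TPM in Control (log2 fold change −1.68, SE 0.34, adjusted p = 0.046). The groups did not overlap in any of the 3 genes, Control 6 was the highest library and Control 5 the lowest of the Control libraries. Hspb1 and Hspb2 passed the filter on low values through their Control libraries alone.

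The other small heat-shock members were not called or not tested. Hspb6, HSP20, found mostly in muscle, was at 7.69, 7.41 and 8.53 TPM in Onway, against 13.4, 7.01 and 20.2 TPM in Control (log2 fold change −0.60, SE 0.34, adjusted p = 0.51); its groups overlapped since Control 5 lay below the Onway libraries while Control 4 and Control 6 lay above them. Hspb11, an intraflagellar transport subunit in spite of its symbol, was at 4.56, 8.90 and 4.94 TPM in Onway, against 7.48, 9.30 and 6.74 TPM in Control (log2 fold change −0.35, SE 0.26, adjusted p = 0.64). Among the untested members, Hspb7, a heart and muscle member, was at 0, 0 and 0.01 TPM in Onway, against 1.25, 0.22 and 2.02 TPM in Control. Hspb8, a partner of Bag3 in clearing damaged filaments, was at 0.03, 0.27 and 0.02 TPM in Onway, against 1.47, 0.50 and 2.30 TPM in Control. Both had all Onway libraries below all Control libraries. Hspb3, a muscle member, was listed at 0 in each Onway library, against 0.33, 0.38 and 0.86 TPM in Control. Hspb9, a testis member, was at 0, 0.52 and 0.18 TPM in Onway, against 0.89, 0.51 and 0.48 TPM in Control, with overlapping groups. Without the filter on low values, Hspb8 had an adjusted p of 0.21, Hspb7 of 0.27, Hspb3 of 0.15 and Hspb9 of 0.49. The class summed to 14.5, 18.8 and 15.5 TPM in Onway, against 55.8, 31.4 and 87.4 TPM in Control, a mean of 16.3 ± 2.27 TPM in Onway and 58.2 ± 28.1 TPM in Control (SD, n = 3 each). The Onway libraries lay wholly below the Control libraries for 3 of its 5 tested members, against 11.5% of all tested genes. Of these, Hspb1 and Hspb2 were tested only because of their Control libraries, so the 2 shares are not a like comparison. The same held for the untested Hspb3, Hspb7 and Hspb8, whose levels were near 0 TPM and to which that share does not apply.

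**Figure D2:**
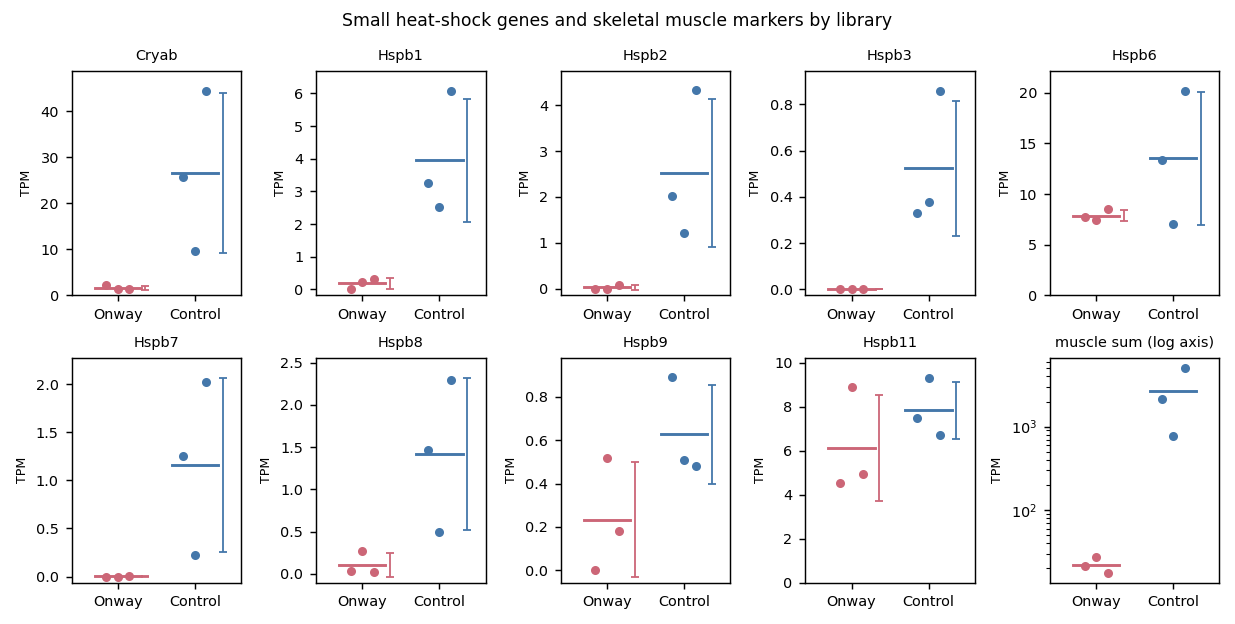
TPM of the 9 small heat-shock members and the summed TPM of 19 skeletal muscle markers (log axis) in each library; points are libraries in number order, Onway left and Control right, lines are means and bars SD. Cryab reaches 2.22 TPM at most in Onway and 9.70 TPM at least in Control, and in Cryab, Hspb1, Hspb2, Hspb6, Hspb7, Hspb8 and the muscle sum Control 6 is highest and Control 5 the lowest of the Control libraries.

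Markers of skeletal muscle were lower in Onway as well. The 19 markers, among them Acta1, Ckm and Myh4, were all lower in Onway without overlap, as were 11.5% of all tested genes. Of the 17 tested, 14 were called lower, against 2.99% of all tested genes, with a median log2 fold change of −4.86. Acta1, Pvalb, Mb and Casq1, among others, had Onway means under 1 TPM and passed the filter on low values through Control alone. The marker sum was 21.4, 27.0 and 17.8 TPM in Onway, against 2145, 781 and 5025 TPM in Control. No marker of the list was at 0 in a Control library, while Myh2 was at 0 in each Onway library, and Mb and Casq1 in Onway 1 and Onway 3. Cryab per 1000 TPM of these markers was 104, 55.6 and 79.2 in Onway, against 12.0, 12.4 and 8.83 in Control, without overlap. In Onway these ratios rest on low values, with Cryab at 1.41 to 2.22 TPM. The main Cryab transcript, ENSMUST00000216755, averaged 0.487 TPM in Onway and 23.1 TPM in Control. A minor one, ENSMUST00000217475, averaged 0.673 TPM in Onway and 0.84 TPM in Control, so the gene sum mixes the 2. Whether Cryab and the muscle sum differed to an unlike degree was not tested. Markers of stroma and bone summed to 41.6, 62.3 and 54.5 TPM in Onway, against 797, 1109 and 449.6 TPM in Control (12 of 15 tested called lower), those of endothelium to 45.0, 47.1 and 47.5 TPM in Onway, against 173, 146 and 173 TPM in Control (10 of 13), and those of megakaryocytes to 186, 144 and 115 TPM in Onway, against 2459.5, 2223 and 2180.2 TPM in Control (14 of 14). In these lists too some genes, such as Dmp1, Emcn and Gp6, passed the filter through Control alone. Among the Control libraries the megakaryocyte sum varied little and the stromal sum was highest in Control 5, unlike the order of Cryab. The endothelial sum was lowest in Control 5, as Cryab was, at 146 TPM against 173 TPM in each other Control library. The part of these cell types in the small heat-shock result was not tested.

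The group means in the authors' deposited table rest on a further value in each group, since every deposited mean was a multiple that 4 values with 2 decimals allow and 71142 Control means could not come from 3. For Cryab the authors' deposited table gives means of 1.50 TPM for Onway and 20.2 TPM for Control. Taking the 3 libraries away from 4 times these deposited means left 0.87 TPM for Onway and 0.88 TPM for Control. The same remainder from the authors' deposited table was 0.37 TPM for Onway and 0.25 TPM for Control for Hspb1, and 0 TPM for Onway and 0.08 TPM for Control for Hspb2. For the skeletal muscle markers, the remainder from the authors' deposited table summed to 22.7 TPM for Onway and 22.9 TPM for Control. The further Control value thus lay near the Onway libraries for these genes and for the muscle sum. It was used in no test.

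Each of the 3 calls depended on single libraries. Cryab had adjusted p-values of 0.082, 0.11 and 0.10 without Onway 1, Onway 2 and Onway 3, and of 0.099 without Control 4. Hspb2 had values of 0.10, 0.16, 0.11 and 0.096 without the same libraries, fell under the filter without Control 6, and had 0.070 with no filter. Hspb1 had 0.068 without Onway 2 and 0.054 without Onway 3. The direction of all 3 held in each of these fits. At the level of single transcripts 156 transcripts of 61 members were tested among 34807. The coding transcript of Hspb1, ENSMUST00000005077, was called lower (adjusted p = 0.032), which makes 1 of 156 against 1.02% of all tested transcripts, and 0 members' transcripts were called higher against 0.198%. The main Cryab transcript, ENSMUST00000216755, was at 1.30, 0 and 0.16 TPM in Onway, against 21.3, 6.18 and 41.9 TPM in Control (log2 fold change −3.78, adjusted p = 0.052). For Hspb6 the coding transcript ENSMUST00000044048 was at 0.61, 1.44 and 0.34 TPM in Onway, against 7.63, 0.87 and 12.7 TPM in Control, with Control 5 again near the Onway libraries. The processed transcript ENSMUST00000123355, which is not translated, was at 5.89, 4.37 and 4.95 TPM in Onway, against 4.05, 5.71 and 6.36 TPM in Control, with overlapping groups, and held most of the Hspb6 sum in the Onway libraries.

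Cryab (chr9:50751325-50756636, plus strand) and Hspb2 (chr9:50751078-50752354, minus strand) lie head to head in GENCODE M21 on GRCm38 and overlap by 1030 bases. Whether the libraries kept strand is not stated in the labels, so reads in the overlap cannot be told apart. Hspb1 (chr5:135887919-135889563, plus strand) stands apart from them. Of the 75 members 58 had a promoter window in the RefSeq table of GRCm38.p6, which covers 250 bases before a start to 50 after it. The heat-shock element is built of repeats of the unit GAA and its reverse TTC, and its 2-unit outward form GAANNTTC (N is any base), searched on both strands, stood in 16 of 75 member windows (21.3%) and in 7.86% of all 32851 windows. It was found in 4 of the 7 small heat-shock genes with a window (Hspb1, Hspb3, Hspb6 and Hspb8) and in 5 of 7 stress-inducible genes. The Hspb1 stretch is shown because it holds 2 matches, in capitals, at positions −117 to −90 from the start (plus strand, GRCm38.p6).
Hspb1 chr5:135887772-135887859: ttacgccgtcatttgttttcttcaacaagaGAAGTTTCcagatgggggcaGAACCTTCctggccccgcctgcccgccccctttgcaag
A match is a description of letters and not a bound site.

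The stress-inducible cytosolic genes, the class that HSF1 switches on most strongly, gave no call. Of the 8 members 6 were tested and none was called by limma or had an unadjusted p under 0.05; 4 had a positive and 2 a negative fold change, with a median log2 fold change of 0.09. That median turned negative without Onway 2 (−0.06), without Control 5 (−0.08) and without Control 6 (−0.09). It rose to 0.32 without Control 4 and to 0.36 without Control 4 and Onway 3 together. Hspa1a, an inducible HSP70, was at 0.40, 0.54 and 0.08 TPM in Onway, against 0.48, 0.24 and 0.20 TPM in Control, and its copy Hspa1b at 1.39, 1.48 and 0.55 TPM in Onway, against 0.94, 0.38 and 0.35 TPM in Control. Both were below the filter, and in both the groups overlapped. They lie 9951 bases apart on chromosome 17, their 300-base promoter windows are identical at 296 bases (98.7%), and the way the authors split shared reads is not known, so the separate values are uncertain. Summed, they were at 1.79, 2.02 and 0.63 TPM in Onway, against 1.42, 0.62 and 0.55 TPM in Control. Relative to the constitutive Hspa8 this sum was 0.232, 0.276 and 0.123% in Onway, against 0.222, 0.122 and 0.138% in Control (exact permutation test, two-sided, p = 0.40). In the values as deposited, inducible HSP70 transcripts were thus a trace beside the constitutive one in both groups. If reads shared by the copies were dropped, this sum would be too low as well.

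The promoter stretches of this pair are shown because these genes define the inducible class. They read the same in both copies, minus strand of GRCm38.p6, with the 2-unit element in capitals.
Hspa1a chr17:34972223-34972290: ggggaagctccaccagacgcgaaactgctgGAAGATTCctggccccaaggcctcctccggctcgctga
Hspa1b chr17:34959305-34959372: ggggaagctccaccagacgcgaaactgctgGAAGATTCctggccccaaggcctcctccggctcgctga
The 3-unit form, GAA, TTC and GAA in turn with 2 free bases between the units, contains both 2-unit forms. On either strand it stood in 6 of 75 member windows (8%) of 4 genes, Dnajb6, Hspd1, Hspe1 and Hsph1, and in 0.603% of all windows. The inward form TTCNNGAA stood in 8 member windows (10.7%) and in 8.52% of all.

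Among the abundant inducible members, Hsp90aa1, the inducible HSP90, was at 137, 193 and 116 TPM in Onway, against 194, 160.0 and 134 TPM in Control (log2 fold change −0.15, 95% interval −0.72 to 0.42, adjusted p = 0.85). Its libraries overlapped widely. Hsph1, HSP110, the nucleotide exchange factor of HSP70, was at 18.4, 28.1 and 20.7 TPM in Onway, against 37.8, 14.7 and 13.0 TPM in Control (log2 fold change 0.18, 95% interval −0.78 to 1.14, adjusted p = 0.90). Control 4 held the highest value and the other Control libraries the lowest. Dnajb1, the main inducible HSP40, was at 29.6, 26.9 and 26.8 TPM in Onway, against 35.9, 17.9 and 21.6 TPM in Control (log2 fold change 0.20, 95% interval −0.39 to 0.79, adjusted p = 0.79). Dnajb4, a close relative of Dnajb1, was at 16.9, 16.8 and 23.9 TPM in Onway, against 36.7, 19.6 and 23.4 TPM in Control (log2 fold change −0.42, SE 0.26, adjusted p = 0.56). In both, Control 4 was again the highest library. Dnaja1, a farnesylated HSP40, was at 72.2, 88.1 and 52.8 TPM in Onway, against 79.4, 68.6 and 56.4 TPM in Control (log2 fold change 0.04, 95% interval −0.50 to 0.59, adjusted p = 0.96), and Dnaja4, its low relative, at 9.92, 9.67 and 13.1 TPM in Onway, against 16.4, 6.18 and 8.68 TPM in Control (log2 fold change 0.15, SE 0.33, adjusted p = 0.90). Of these intervals that of Hsph1 was the widest, and each of them holds 0. Hsf1 itself was at 14.6, 19.7 and 16.6 TPM in Onway, against 16.3, 13.5 and 14.7 TPM in Control (log2 fold change 0.18, SE 0.17, adjusted p = 0.73).

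The immediate early genes, transcription factors and regulators switched on within minutes of a stimulus, are set beside these values. Of 22 symbols 18 were tested and 6 were called higher, against 0.233% of all tested genes. Among the 6 were Jund, Klf2, Fos and Dusp1, and the median log2 fold change of the list was 1.53. Their sum was 2908, 2157 and 1157 TPM in Onway, against 345, 352 and 484 TPM in Control, without overlap. Fos was at 715, 446 and 206 TPM in Onway, against 10.2, 8.81 and 25.4 TPM in Control (log2 fold change 4.83, SE 0.57, adjusted p = 0.0089). Onway 1 held the highest early gene sum and Onway 3 the lowest of the Onway libraries, an order that the Hspa8 sum shares, while Hsph1 and Hsp90aa1 were highest in Onway 2. The processed Hspa8 transcript ENSMUST00000153847 was at 257, 65.3 and 96.25 TPM in Onway. The main Hspa8 transcript, assembled and not in Ensembl, was at 475, 618 and 388 TPM in Onway, highest in Onway 2. The part of the early gene difference in any chaperone value was not tested.

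**Figure D3:**
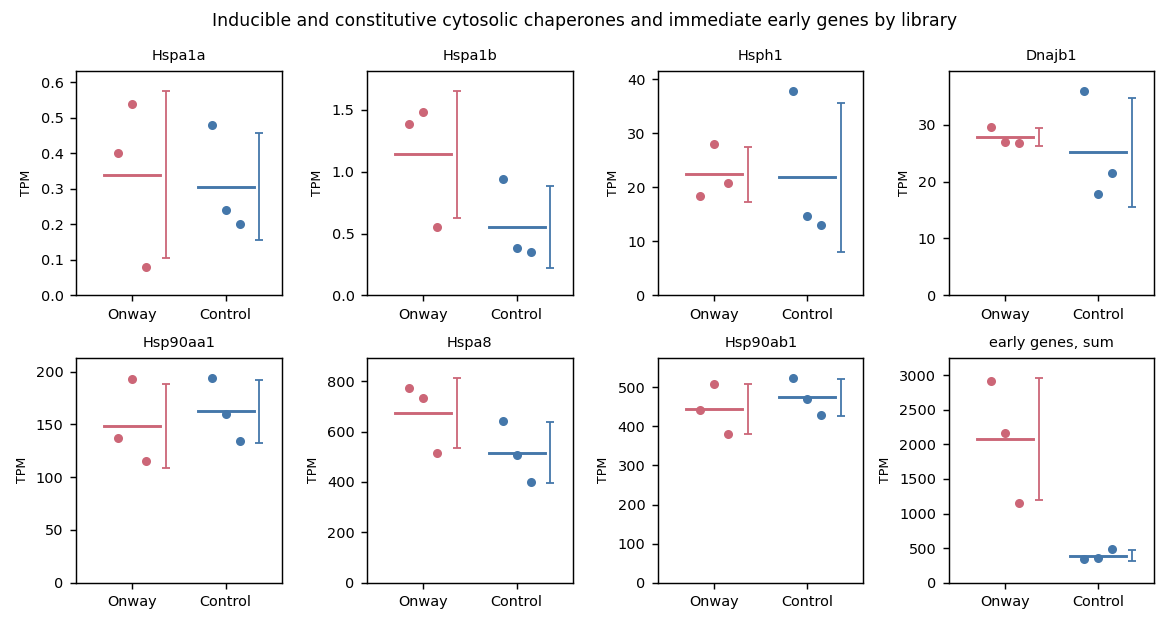
TPM of 5 stress-inducible and 2 constitutive cytosolic chaperones and the summed TPM of 22 immediate early genes in each library; points are libraries in number order, Onway left and Control right, lines are means and bars SD. The early gene sum lies between 1157 and 2908 TPM in Onway and between 345 and 484 TPM in Control, while the groups overlap for every chaperone drawn.

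Constitutive cytosolic chaperones were the most abundant class and were not called in either direction: all 10 were tested, 3 had a positive and 7 a negative fold change, none had an unadjusted p under 0.05 and the median log2 fold change was −0.04. These signs depended on single libraries: 1 of 10 was negative without Onway 3 (median 0.05), 4 without Control 4 (median 0.03) and 5 without Onway 1 (median 0.01). Hspa8, HSC70, the housekeeping HSP70 and also the uncoating ATPase of clathrin vesicles, had the highest mean of all members at 771, 732 and 514 TPM in Onway, against 641, 506 and 399 TPM in Control (log2 fold change 0.39, 95% interval −0.18 to 0.96, adjusted p = 0.57). Onway 1 and Onway 2 were above every Control library, and Onway 3 lay between Control 4 and Control 5. An assembled transcript not in Ensembl carried 75.1% of the Hspa8 sum; on Ensembl transcripts alone the fold change was 0.52 (adjusted p = 0.66). Hsp90ab1, the constitutive HSP90, was at 443, 509 and 379.9 TPM in Onway, against 522, 469.5 and 429 TPM in Control (log2 fold change −0.10, 95% interval −0.52 to 0.33, adjusted p = 0.87), with overlapping groups. The class summed to 1567, 1726 and 1287 TPM in Onway, against 1597, 1354 and 1196 TPM in Control, and Hspa8 with Hsp90ab1 made up most of it.

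Ratios within a library show how the members stood to each other. The ratio of Hspa8 to Hsp90ab1 was 1.74, 1.44 and 1.35 in Onway, against 1.23, 1.08 and 0.929 in Control, higher in each Onway library than in each Control library. An exact two-sided permutation test gave p = 0.10, the smallest that 3 against 3 libraries allow, and 0.45 after Benjamini-Hochberg adjustment over 9 ratios. The ratio of inducible to constitutive HSP90, Hsp90aa1 to Hsp90ab1, was 0.309, 0.379 and 0.305 in Onway, against 0.371, 0.341 and 0.312 in Control (exact p = 0.70). As a share of the summed constitutive members, the summed inducible members were at 18.2, 21.1 and 19.7% in Onway, against 25.1, 21.2 and 21.5% in Control. The summed small heat-shock members were at 0.925, 1.09 and 1.20% in Onway, against 3.49, 2.32 and 7.30% in Control of the constitutive sum. Both shares were lower in each Onway library than in each Control library, the inducible one narrowly, and these sums carry no test because their members were chosen with earlier results known. The genes of the tested ratios come from the same members, so that limit holds for their p-values too.

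The other constitutive members had fold changes near 0. Dnajc7, which binds both HSP70 and HSP90, was at 98.4, 177 and 126 TPM in Onway, against 114, 113 and 105 TPM in Control (log2 fold change 0.23, SE 0.23, adjusted p = 0.73), with Onway 2 above the rest. Hspa4, an HSP110 relative that recharges HSP70, had a log2 fold change of −0.08 (adjusted p = 0.91), Hspa4l, its testis-rich relative, of −0.13 (adjusted p = 0.90), and Hspa14, a ribosome-associated HSP70, of −0.04 (adjusted p = 0.94). Dnaja2, an HSP40 for refolding, had −0.04 (adjusted p = 0.95), Dnajb6, an inhibitor of polyglutamine aggregation, 0.05 (adjusted p = 0.94), and Dnajc2, the J protein of the ribosome, −0.05 (adjusted p = 0.95). Dnajb2, which sorts clients to the proteasome, was the exception in spread, at 34.9, 35.6 and 60.8 TPM in Onway, against 72.9, 27.3 and 43.3 TPM in Control (log2 fold change −0.06, SE 0.39, adjusted p = 0.97). Its highest libraries, Onway 3 and Control 4, were those with the most haemoglobin.

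No mitochondrial chaperone was called. All 10 were tested; 9 had a negative fold change, against 46.4% of all tested genes, 0 were called by limma, 3 had an unadjusted p under 0.05, against 13.4% of all tested genes, and the median log2 fold change was −0.35, against 0.03 over all tested genes. The count of negative fold changes was 8 of 10 with quantile normalization and with libraries rescaled without haemoglobin and immunoglobulin genes, and 6 of 10 without Control 4. The median was −0.22 without Onway 3, −0.28 without Control 4 and −0.18 without both, so its size depended on these libraries. Hspe1, HSP10, the lid of the HSP60 chamber, was at 67.6, 87.0 and 82.1 TPM in Onway, against 139, 116 and 90.8 TPM in Control (log2 fold change −0.53, 95% interval −1.02 to −0.04, adjusted p = 0.33). Hspd1, HSP60 itself, was at 63.9, 86.3 and 59.9 TPM in Onway, against 109, 94.5 and 78.2 TPM in Control (log2 fold change −0.43, SE 0.21, adjusted p = 0.45). Hspa9, mortalin, the HSP70 of the matrix and of import, was at 44.1, 55.5 and 41.3 TPM in Onway, against 65.3, 58.5 and 52.4 TPM in Control (log2 fold change −0.32, SE 0.18, adjusted p = 0.51). Hspe1 was lower in each Onway library than in each Control library, while for Hspd1 and Hspa9 Onway 2 lay above Control 6. Dnajc19, a J protein of the import motor, was at 43.1, 40.6 and 44.7 TPM in Onway, against 53.9, 57.7 and 55.8 TPM in Control (log2 fold change −0.38, SE 0.14, adjusted p = 0.30), also without overlap and with the least spread of these genes. Its Onway libraries all lay under 45 TPM and its Control libraries all above 53 TPM.

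The ratio of Hspd1 to Hsp90ab1 was 0.144, 0.170 and 0.158 in Onway, against 0.209, 0.201 and 0.182 in Control, lower in each Onway library (exact p = 0.10, the smallest possible, adjusted p = 0.45 over 9 ratios). The ratio of Hspe1 to Hspd1 was 1.06, 1.01 and 1.37 in Onway, against 1.27, 1.22 and 1.16 in Control (exact p = 0.50), with overlapping groups. Dnajc15, a regulator of respiration at the inner membrane, had a log2 fold change of −0.51 (adjusted p = 0.54). Dnaja3, the mitochondrial HSP40 called Tid1, had −0.08 (adjusted p = 0.91), Dnajc11, of the cristae contact sites, −0.02 (adjusted p = 0.98), and Dnajc30, a partner of ATP synthase, 0.12 (adjusted p = 0.83), the single positive value of the class.

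Hspd1 (chr1:55077835-55088243, minus strand) and Hspe1 (chr1:55088132-55091307, plus strand) are head-to-head neighbours that overlap by 112 bases and share a promoter. That promoter is shown because it holds the 3-unit element in both directions and serves a pair whose fold changes have the same sign. The capitals mark 2 overlapping matches at positions −89 to −72 from the Hspe1 start, plus strand of GRCm38.p6.
Hspe1 chr1:55088053-55088082: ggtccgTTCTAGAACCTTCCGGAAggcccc
The mouse HSP110 gene Hsph1 carries the same 3-unit form just after its start (minus strand).
Hsph1 chr5:149636288-149636300: TTCTGGAAAGTTC

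The endoplasmic reticulum class, 14 members that the unfolded protein response controls in part, gave no call. All 14 were tested, 9 had a positive and 5 a negative fold change, none was called by limma or had an unadjusted p under 0.05, and the median log2 fold change was 0.04. These signs too depended on the libraries and the scaling: 10 of 14 were negative without Onway 2 (median −0.10), 1 without Onway 3 (median 0.24), 3 without Control 5 (median 0.08) and 2 after rescaling without haemoglobin and immunoglobulin genes (median 0.06). Hspa5, BiP, the HSP70 of the compartment, was at 171, 222 and 113 TPM in Onway, against 171, 196 and 135 TPM in Control (log2 fold change −0.03, 95% interval −0.68 to 0.63, adjusted p = 0.98). Hsp90b1, GRP94, its HSP90, was at 200.4, 285 and 153 TPM in Onway, against 192, 231 and 188 TPM in Control (log2 fold change 0.02, 95% interval −0.56 to 0.61, adjusted p = 0.98). In both, Onway 2 was the highest and Onway 3 the lowest of all 6 libraries, so the spread within Onway enclosed the Control libraries. Dnajb11, a soluble J protein that delivers clients to BiP, was at 53.7, 64.6 and 43.3 TPM in Onway, against 54.7, 55.9 and 45.8 TPM in Control (log2 fold change 0.03, SE 0.19, adjusted p = 0.97). Dnajb9, an early target of the unfolded protein response that restrains the sensor IRE1, was at 20.5, 18.6 and 9.06 TPM in Onway, against 13.5, 13.1 and 11.3 TPM in Control (log2 fold change 0.25, SE 0.29, adjusted p = 0.77). Its Onway 1 and Onway 2 libraries were the highest and Onway 3 the lowest. Dnajc3, the inhibitor of eIF2α kinases called p58IPK, was at 21.2, 25.7 and 15.0 TPM in Onway, against 20.5, 22.9 and 18.7 TPM in Control (log2 fold change −0.03, SE 0.22, adjusted p = 0.97). Dnajc1, a membrane J protein, had a log2 fold change of 0.21 (adjusted p = 0.81) and Dnajc18 of −0.20 (adjusted p = 0.74).

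The endoplasmic reticulum stress element, CCAAT and CCACG with 9 free bases between them, on either strand, stood in 3 of the 75 member windows (4%) and in 0.119% of all windows. The 3 genes, Hspa5, Hsp90b1 and Dnajc3, all belong to this class, and 2 of them are shown (plus strand, GRCm38.p6, element in capitals) because no member window outside this class holds the element.
Hspa5 chr2:34772019-34772048: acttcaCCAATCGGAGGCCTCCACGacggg
Dnajc3 chr14:118937797-118937875: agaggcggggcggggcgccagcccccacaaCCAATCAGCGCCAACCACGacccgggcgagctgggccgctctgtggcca
The 3 genes with the element had fold changes of −0.03, 0.02 and −0.03.

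**Figure D4:**
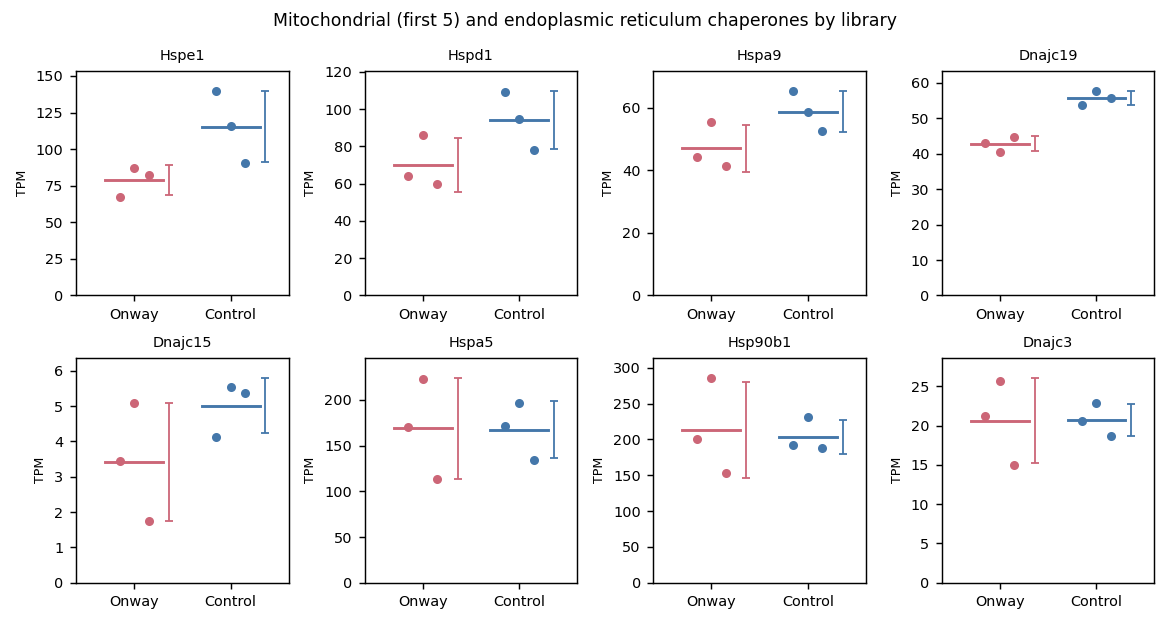
TPM of 5 mitochondrial and 3 endoplasmic reticulum chaperones in each library; points are libraries in number order, Onway left and Control right, lines are means and bars SD. Hspe1 and Dnajc19 are lower in each Onway library than in each Control library, while Hspa5, Hsp90b1 and Dnajc3 are highest in Onway 2 and lowest in Onway 3.

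The members were also set against the haemoglobin share of the 6 libraries, and none of the 63 relations passed the adjustment. In the endoplasmic reticulum class Pearson's r was negative for 12 of 14 genes and ran from −0.89 to 0.54, with 0.02 for Dnajb12 and 0.54 for Dnajc16. The 3 genes of the class with the lowest p are given next, chosen after their values were seen. Hspa13, an HSP70 of microsomes, had Pearson's r = −0.89 (exact permutation p = 0.018, adjusted p = 0.37 over 63 members) and Spearman's rho = −0.94 (exact p = 0.017, adjusted p = 0.35). Dnajc3 had r = −0.88 (exact p = 0.018) and Hsp90b1 r = −0.87 (exact p = 0.021), each with rho = −0.94 and an adjusted p of 0.37 for r. Without Onway 3 and Control 4, the libraries farthest from the median share, r was −0.99 for Hspa13, −0.98 for Dnajc3 and −0.90 for Hsp90b1. After the haemoglobin and immunoglobulin genes were taken out and each library was rescaled, r was −0.62, −0.36 and −0.47 in the same order of genes. Dnajb2 ran the other way, with r = 0.88 (exact p = 0.025, adjusted p = 0.37), rho = 0.77 (exact p = 0.10), r = 0.65 without those libraries and r = 0.93 after rescaling. Within a group there are 3 libraries, too few for a correlation of their own.

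Vesicle J proteins, divergent HSP70 genes and the remaining DNAJ genes gave no call. Dnajc5, cysteine string protein of secretory granules, had a log2 fold change of 0.14 (adjusted p = 0.81), and Dnajc13, of endosomes, 0.10 (adjusted p = 0.91). Dnajc6, auxilin, which brings Hspa8 to clathrin coats, was at 2.28, 2.21 and 2.07 TPM in Onway, against 3.71, 3.00 and 3.02 TPM in Control (log2 fold change −0.41, SE 0.18, adjusted p = 0.39), lower in each Onway library. Dnajc5b and Dnajc5g were listed at 0 in all 6 libraries. Hspa2, a testis-rich HSP70, was at 5.42, 8.10 and 5.41 TPM in Onway, against 5.05, 5.25 and 3.25 TPM in Control (log2 fold change 0.41, SE 0.24, adjusted p = 0.53), the single tested member higher in each Onway library. Hspa12a, a divergent HSP70 below the filter, was at 1.34, 0.99 and 0.95 TPM in Onway, against 0.70, 0.56 and 0.53 TPM in Control, also without overlap. Its relative Hspa12b, found in endothelium, had a log2 fold change of −0.38 (adjusted p = 0.55), and Hspa1l, the testis HSP70 next to Hspa1a, of −0.22 (adjusted p = 0.74).

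Of the remaining DNAJB genes, Dnajb3 had a log2 fold change of 0.39 (adjusted p = 0.66), Dnajb13, of sperm flagella, 0.17 (adjusted p = 0.89) and Dnajb5 −0.12 (adjusted p = 0.87). Dnajb8 was listed at 0 in all 6 libraries and Dnajb7 lay below the filter. Of the remaining DNAJC genes, Dnajc12, the co-chaperone of aromatic amino acid hydroxylases, was at 2.92, 2.44 and 1.23 TPM in Onway, against 3.91, 3.87 and 3.63 TPM in Control (log2 fold change −0.63, SE 0.25, adjusted p = 0.32). Dnajc8, a splicing J protein, was at 108, 115 and 101 TPM in Onway, against 119, 116 and 119 TPM in Control (log2 fold change −0.13, SE 0.15, adjusted p = 0.77). Both were lower in each Onway library, Dnajc8 by little. Dnajc9, a histone chaperone, was at 83.1, 98.8 and 98.3 TPM in Onway, against 103, 82.0 and 71.4 TPM in Control (log2 fold change 0.14, SE 0.19, adjusted p = 0.81), with overlapping groups. Dnajc24, of diphthamide synthesis, had −0.44 (adjusted p = 0.44), and Dnajc21, of ribosome maturation, 0.29 (adjusted p = 0.58).

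Genes that work with these chaperones were read from lists outside the members. Of 33 co-chaperones and heat-shock factor genes, all tested, 1 was called lower and none higher by limma, against 2.99% and 0.233% of all tested genes. An unadjusted p under 0.05 was reached by 3 of the 33, against 13.4% of all tested genes. The fold changes had a median of −0.12 (log2). The call was Serpinh1, the collagen chaperone HSP47, at 0.68, 1.70 and 1.15 TPM in Onway, against 18.9, 28.0 and 10.1 TPM in Control (log2 fold change −3.12, SE 0.37, adjusted p = 0.0042). Its libraries did not overlap, and Control 5 was the highest and Control 6 the lowest Control library, the order of the summed stroma and bone markers. Their part in this result was not tested. Next in order of p was Cct3, a subunit of the cytosolic chaperonin TRiC, with a log2 fold change of −0.49 (adjusted p = 0.24). Bag3, the HSP70 co-chaperone that works with Hspb8, is given for that link and not by its rank in p. It was at 3.41, 3.95 and 1.91 TPM in Onway, against 6.45, 4.21 and 3.92 TPM in Control (log2 fold change −0.53, SE 0.27, adjusted p = 0.47), with overlapping groups. Of 20 tested endoplasmic reticulum stress genes none was called by limma, and 3 had an unadjusted p under 0.05, against 13.4% of all tested genes. Among them 10 had a positive and 10 a negative fold change, and the median was −0.01. Both with the lowest p were higher on average in Onway, Syvn1, a ligase that clears misfolded proteins, at 0.73 (adjusted p = 0.17) and Herpud1, its partner, at 0.63 (adjusted p = 0.21).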

How the data were processed

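The 6 marrow RNA-seq libraries, 3 Onway and 3 Control, were grouped by their titles. Onway columns carry another prefix in the table and were matched to titles by their number. Per the labels' protocols, a column kit gave the RNA and a SMARTer kit for mRNA the libraries. The authors deposited 1 table of TPM for 158850 transcripts (16416 of them assembled and without an Ensembl identifier), scaled to a total of 1000000 in each library, with group means. Genome builds GRCm38 and mm10 are named per the submitters' processing notes. Aligner and quantifier were not given in the sources used here. Transcript length, also deposited, was not used in any computation.

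TPM was summed to genes. The design allowed for counts or TPM; because the values are TPM, limma 3.58.1 (R 4.3.3, trend and robust moderation) was run on log2(TPM + 1), which understates the change of low genes, for genes whose mean over all 6 reached 1 TPM, two-sided, with Benjamini-Hochberg adjustment and a threshold of 0.05. The fit was tested on simulated data. Ratios used an exact permutation test. Members, classes and lists were chosen with earlier results of these data known. Described in full were members past the threshold, the 3 most abundant and the 3 with the lowest p in each class, Hsf1 and Cryab; of other lists, up to 4 called genes or the 2 with the lowest p. Transcripts, early gene or marker values, Cct3 and Bag3 are given beside them. Alternatives were another pseudocount, filter, scaling, transcript set or variance setting and leaving out libraries; a fit over transcripts was chosen after seeing the data. Sequences are from RefSeq (GRCm38.p6). Values of 1 member and 1 other gene are not reported here.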

Additional observations from a re-analysis of the deposited data

How the results depend on the processing

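Members called lower, 3 of them, numbered 1 with a mean of at least 5 TPM, where 2 of the 3 are no longer tested, 0 without Control 4 and Onway 3 together, 1 over transcripts in place of gene sums, and 0 to 3 when a single library was left out. No member was called higher in any setting. Over all genes, the 424 lower calls became 183 with a mean of at least 5 TPM, 207 without Control 4 and Onway 3, and 246 to 456 with 1 library left out. The 33 higher calls became 20, 97 and 16 to 87 in the same settings, and 56 with quantile normalization. Quantile normalization left Cryab and Hspb1 called and Hspb2 not (adjusted p = 0.076). Cryab, Hspb1 and Hspb2 kept a negative fold change wherever they were tested.

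Of 518 pairs of a named member and a setting, 476 kept direction and side of the threshold. The 26 pairs in which the sign turned were in 12 members with fold changes near 0, called in neither fit. With quantile normalization, log2 fold changes were −0.022 for Dnaja1, −0.022 for Dnajb11 and −0.010 for Hsp90b1. On Ensembl transcripts alone, Dnajb9 had −0.037, and with libraries rescaled without haemoglobin and immunoglobulin genes Hspa5 had 0.0016. Without Control 4 and Onway 3, values were 0.058 for Dnajb5, 0.15 for Hsp90aa1, 0.081 for Hsp90ab1 and 0.26 for Hspa5. With 1 library left out, ranges were −0.13 to 0.24 for Dnaja1, −0.0050 to 0.48 for Dnajb1, −0.11 to 0.18 for Dnajb11, −0.028 to 0.55 for Dnajb13, −0.25 to 0.049 for Dnajb5, −0.0085 to 0.50 for Dnajc1, −0.13 to 0.30 for Dnajc13, −0.35 to 0.015 for Hsp90aa1, −0.20 to 0.0080 for Hsp90ab1, −0.21 to 0.24 for Hsp90b1 and −0.25 to 0.23 for Hspa5. The cause of these shifts was not tested. No paired analysis was possible because the replicate numbers of the groups, 1 to 3 and 4 to 6, are not shared. Read depth is unknown, so no counting error can be set beside members near 0 TPM.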

Other observations

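The remainders of the authors' deposited table are 4 times a deposited group mean less the 3 libraries of the group. They are given for some cytosolic, endoplasmic reticulum and mitochondrial members, not for all. For Hspa8 the authors' deposited table left 1050.2 TPM for Onway and 504 TPM for Control, and for Hsp90ab1 415 TPM for Onway and 464 TPM for Control. For Hsph1 the authors' deposited table left 40.2 TPM for Onway and 19.6 TPM for Control, for Hsp90aa1 211 TPM for Onway and 174 TPM for Control and for Dnaja1 107 TPM for Onway and 63.1 TPM for Control. For Hspa1a it left 1.29 TPM for Onway and 0.40 TPM for Control in the authors' deposited table, and for Hspa1b 2.78 TPM for Onway and 1.17 TPM for Control. The Onway remainder of each of these genes other than Hsp90ab1 was higher than each of the 3 Onway libraries and each of the 3 Control libraries. The other stress-inducible members, Dnajb1, Dnajb4 and Dnaja4, did not show this. In the authors' deposited table they left 30.15, 24.98 and 11.26 TPM for Onway and 29.52, 29.26 and 14.79 TPM for Control. These Onway remainders lay below Control 4, which was at 35.88, 36.65 and 16.43 TPM in the same order of genes. For the mitochondrial pair the authors' deposited table left 98.5 TPM for Onway and 109.5 TPM for Control in Hspe1, and 90.3 TPM for Onway and 98.6 TPM for Control in Hspd1.

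The marker sums of the same remainders differed from those of the libraries. Immediate early genes came to 638 TPM for Onway and 1342 TPM for Control from the authors' deposited table, and megakaryocyte markers to 1259.5 TPM for Onway and 1057 TPM for Control. Stroma and bone markers came to 94.6 TPM for Onway and 97.7 TPM for Control from the authors' deposited table. For megakaryocyte and for stroma and bone markers, the Onway and Control remainders lay closer to each other than any Onway library lay to any Control library, and for the early genes the Control remainder was above the Onway one. No remainder entered a test.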
